A study of Mus musculus with 10 samples.

Results

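Ribosome biogenesis genes and Myc were followed in sorted mouse leukaemic progenitors in which a mutant DNMT3A had been left on or turned off. The group was set by a written list of 41 genes of known function, with no rule on their values. The choice was made with earlier results of these data known. The list holds Myc, its polyamine synthesis targets Odc1 and Srm, and genes for nucleolar proteins, snoRNA-protein complexes, RNA polymerase I and ribosome assembly. All 41 were found among the 52636 genes of the count table, and all 41 passed the filter on low counts, which left 15916 genes to test.

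The cells came from the DIN model, in which fetal liver cells carried 3 retroviral vectors together, MSCV-TRI-DNMT3AR882H-dsRed, MSCV-GFP-IDH2R140Q and MSCV-NRASG12D-TTA. Recipients were sub-lethally irradiated female Ptprca mice, and frozen cells from moribund animals were transplanted again before treatment. Doxycycline shuts off the DNMT3AR882H vector. Mice received it or an ordinary diet, and after 5 or 14 days cKit+/Cd11b- cells were sorted from marrow and spleen. The 4 groups were day 14 off (vector turned off, 4 libraries), day 14 on (vector left on, 2 libraries), day 5 off (2 libraries) and day 5 on (2 libraries). All 4 carried the IDH2R140Q and NRASG12D vectors, and no group received doxycycline without the regulated vector, so an effect of the drug itself cannot be told apart from loss of DNMT3AR882H. The labels do not say which tissue each library came from or whether libraries are separate mice, so p-values measure only the spread between libraries, which may be technical. The described sort used no vector fluorophore, so recipient cells with the same surface markers may be present.

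Libraries held 9292644 to 14340624 counts and were made from the 3′ ends of polyA RNA, so 1 transcript gives about 1 tag and levels in CPM, counts scaled to a common library size, were not compared between genes. Libraries of the same group correlated at 0.953 to 0.983 across genes. Kit, the gene of the sorted cKit antigen, stood at 30.9 to 36.4 CPM in the day 14 off group, 88.9 and 98.1 in the day 14 on group, and 40.3 to 56.2 at day 5. Itgam, which encodes Cd11b, stood at 2.07 to 3.73 CPM in the day 14 off group, 21.9 and 8.76 in the day 14 on group, 14.6 and 3.17 in the day 5 off group and 6.74 and 3.08 in the day 5 on group. Both were called lower at day 14 off than on (edgeR adjusted p = 4.78e-05 for Kit and 0.0121 for Itgam). From 7.78% to 16.5% of a library's counts lay in 3 genes at ribosomal RNA loci. Many day 14 calls needed replicate 1 of day 14 on. The effect of leaving it out is given for the members and for the pathway genes that are named. The other called genes of the further gene lists were not followed in that fit, so their counts may rest on this library.

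Ribosome production begins in the nucleolus, where RNA polymerase I transcribes a long precursor of the ribosomal RNAs. Small nucleolar RNAs bound to proteins guide chemical modification of that precursor, and a large set of assembly factors cleaves and folds it into the small and large subunits. MYC, a transcription factor that drives growth and is often overactive in leukaemia, is known to raise many of these genes together with ornithine decarboxylase, and it binds the E-box CACGTG.

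Because E-boxes are the textbook MYC site, the RefSeq promoter windows of the members (GRCm38.p6, 250 bases before to 50 after the start, 300 bases each) were searched for CACGTG, which reads the same on both strands. Of the 35 members with a window, 8 (22.9%) held the motif, against 2187 of 27025 genes with a window (8.09%). The 4 windows printed here are those of an RNA methyltransferase of the large subunit, a small-subunit factor, a polymerase I initiation factor and a nucleolar Myb-binding protein. They are written 5′ to 3′ on the gene's strand with the motif in capitals. Nop2 (chr6:125131633-125131932, plus strand) has it 60 bases before the start. Wdr43 (chr17:71615965-71616264, plus strand) has it 18 bases after the start and Mybbp1a (chr11:72441077-72441376, plus strand) 41 bases after. Rrn3 (chr16:13780449-13780748, plus strand) has 2 copies, 215 and 48 bases before the start.
Nop2: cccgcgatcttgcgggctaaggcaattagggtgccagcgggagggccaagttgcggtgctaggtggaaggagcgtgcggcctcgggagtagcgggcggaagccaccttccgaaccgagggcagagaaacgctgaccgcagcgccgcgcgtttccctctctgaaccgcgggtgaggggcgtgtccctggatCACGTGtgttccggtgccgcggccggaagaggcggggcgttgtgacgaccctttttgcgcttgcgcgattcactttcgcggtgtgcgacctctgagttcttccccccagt
Wdr43: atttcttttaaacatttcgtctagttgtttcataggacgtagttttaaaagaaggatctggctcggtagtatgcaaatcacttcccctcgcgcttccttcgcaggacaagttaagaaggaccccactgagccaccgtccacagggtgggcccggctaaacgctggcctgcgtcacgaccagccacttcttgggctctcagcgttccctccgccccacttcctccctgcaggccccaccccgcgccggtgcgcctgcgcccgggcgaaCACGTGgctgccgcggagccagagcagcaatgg
Rrn3: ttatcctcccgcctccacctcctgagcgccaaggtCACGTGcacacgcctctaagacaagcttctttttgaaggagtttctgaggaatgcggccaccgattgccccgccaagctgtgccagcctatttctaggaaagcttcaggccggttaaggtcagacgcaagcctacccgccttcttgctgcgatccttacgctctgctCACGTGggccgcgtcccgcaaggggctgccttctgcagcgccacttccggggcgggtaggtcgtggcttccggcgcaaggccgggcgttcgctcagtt
Mybbp1a: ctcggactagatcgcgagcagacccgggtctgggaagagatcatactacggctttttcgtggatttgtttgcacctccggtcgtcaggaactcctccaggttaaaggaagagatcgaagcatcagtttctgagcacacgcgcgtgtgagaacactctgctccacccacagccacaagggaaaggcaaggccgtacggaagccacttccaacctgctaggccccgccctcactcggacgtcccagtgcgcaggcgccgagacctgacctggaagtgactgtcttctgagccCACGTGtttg

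The other members with the motif were Ltv1, Utp20, Pes1 and Tsr1. A match describes the letters in a window and shows no binding. At day 14, 5 of the 8 members with the motif were called higher off than on (Nop2, Utp20, Pes1, Tsr1 and Wdr43), as were 22 of the 27 members with a window and no motif. Rrn3 and Mybbp1a, whose windows are printed, were not among the called genes.

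After 14 days, ribosome biogenesis genes were higher with DNMT3AR882H off than on. In the off versus on results, a gene that rose or fell was higher or lower off than on at that day. The words make no comparison with day 5. Of the 41 members, 31 (75.6%) rose and 0 fell by edgeR's quasi-likelihood test at a Benjamini-Hochberg adjusted p of 0.05 over all 15916 genes, whereas 31.8% of all tested genes were called, 16.9% higher and 14.9% lower. The log2 change (off over on) was above 0 for 40 of 41 members and had a median of 0.67, against 0.01 over all tested genes, and it ran from -0.09 (Bysl) to 1.52 (Odc1). In 32 members every day 14 off library lay above both day 14 on libraries, and in 0 members below, against 27.9% and 24.6% of all tested genes. Without day 14 on replicate 1, 7 members were called higher (Odc1, Srm, Nolc1, Nop56, Nhp2, Rrp9 and Gnl3), and 37 of 41 changes were still above 0. These 7 were also called under each of the 18 alternatives to the processing, whereas the calls of Polr1a, Wdr43, Nop14, Pes1, Wdr12 and Ddx21 were lost under at least 1 that kept all libraries. Without day 14 off replicate 1 the count was 21. Nop56, Nhp2, Rrp9 and Gnl3 overlap a gene on the opposite strand, which limits their values as described below. Odc1, Srm and Nolc1 are not among the members so limited.

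**Figure D1:**
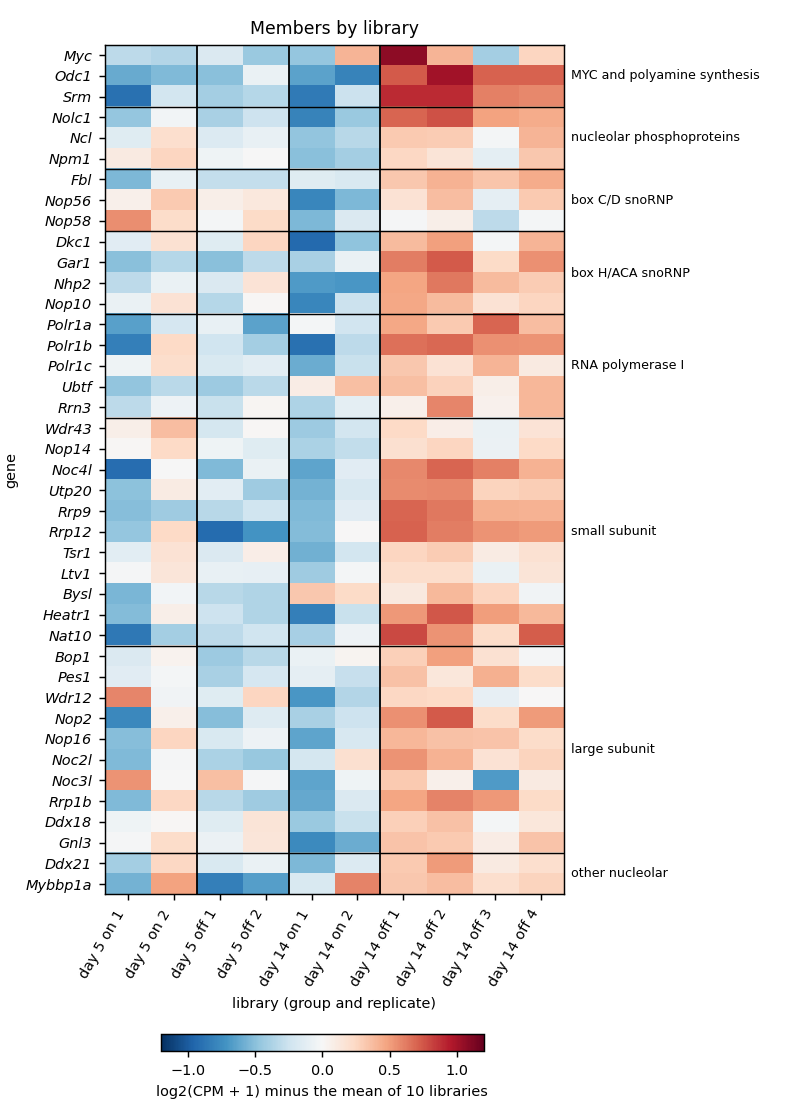
Level of each of the 41 genes in each of the 10 libraries, as the log2 CPM minus that gene's mean over all libraries (colour scale), with genes ordered by role and libraries by group. The 4 day 14 off libraries are above the gene's mean for most genes, and the 2 day 14 on libraries are below it for most.

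Other features of the libraries moved with this difference. Summed CPM of 16 proliferation genes was 2484 to 3004 in the day 14 off group, 1164 to 1172 in the day 14 on group, 1783 to 1825 in the day 5 off group and 1319 to 1838 in the day 5 on group, and 15 of the 16 were called higher at day 14. Erythroid genes summed to 4379 to 5728 CPM in the day 14 off group, 1615 to 2239 in the day 14 on group, 1093 to 2562 in the day 5 off group and 1458 to 3464 in the day 5 on group, with 16 of 23 called higher at day 14. Gene by gene, the erythroid list was also higher off than on at day 5, unlike its sums. The median log2 change was 2.31, and 3 of 23 were called higher, where 0.371% of all tested genes were. Neutrophil genes summed to 798.9 to 1231 CPM in the day 14 off group and 1220 to 1893 in the day 14 on group, and monocyte genes to 116 to 153 and 151 to 345. Of these, 4 of 13 neutrophil genes were called lower and 1 higher, and 4 of 8 monocyte genes lower. Granulocyte progenitor genes summed to 14.97 to 88.9 CPM at day 14 off against 90.7 to 294 on (3 of 6 lower), and B cell genes to 45.8 to 74.3 against 143 to 190.5 (1 of 7 lower). Mast cell and basophil genes summed to 2.71 to 5.16 against 10.75 to 23.0 (2 of 4 lower), and stroma genes to 57.1 to 81.7 against 136 to 235 (1 of 3 lower, 1 higher). Sums of T and NK cell genes and of megakaryocyte genes overlapped between the day 14 groups, as did those of neutrophil and of monocyte genes. Of all tested genes, 16.9% were called higher and 14.9% lower, and the B cell share was near the latter. The 4 day 14 off libraries also held less Kit than either day 14 on library. The part of cell makeup, division and sorting in the ribosome biogenesis values was not tested, and in bulk RNA more cells of a type and more RNA per cell cannot be told apart.

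Both polyamine genes rose at day 14, and Myc was not called. Odc1 (ENSMUSG00000011179, mm10 chromosome 12, 17544794 to 17551505) encodes ornithine decarboxylase, the first enzyme of polyamine synthesis, and stood at 374, 450.1, 366 and 367 CPM in the 4 day 14 off libraries and at 143 and 128 in the day 14 on libraries. At day 5 it stood at 158 and 212 CPM off and 147 and 154 on. Every day 14 off library was above every other library, and the day 14 on libraries were the lowest. The log2 change at day 14 was 1.52 ± 0.16 (standard error; edgeR adjusted p = 0.000106), the largest and the smallest in p among the members. Srm, the spermidine synthase gene, had a log2 change of 1.32 ± 0.24 (edgeR adjusted p = 0.00214), from 13.6 and 20.95 CPM on to 38.1 to 48.0 CPM off. Myc itself (ENSMUSG00000022346, chromosome 15, 61985391 to 61990374) stood at 40.05, 25.0, 13.7 and 22.4 CPM in the day 14 off group and 13.2 and 24.9 in the day 14 on group, and at 16.3, 13.3, 14.7 and 14.3 in the 4 day 5 libraries. The day 14 groups overlapped, and the day 14 off libraries were spread over the widest range. Its log2 change of 0.40 ± 0.38 did not pass (edgeR adjusted p = 0.451), and the 95% interval of -0.43 to 1.24 leaves the direction undecided.

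**Figure D2:**
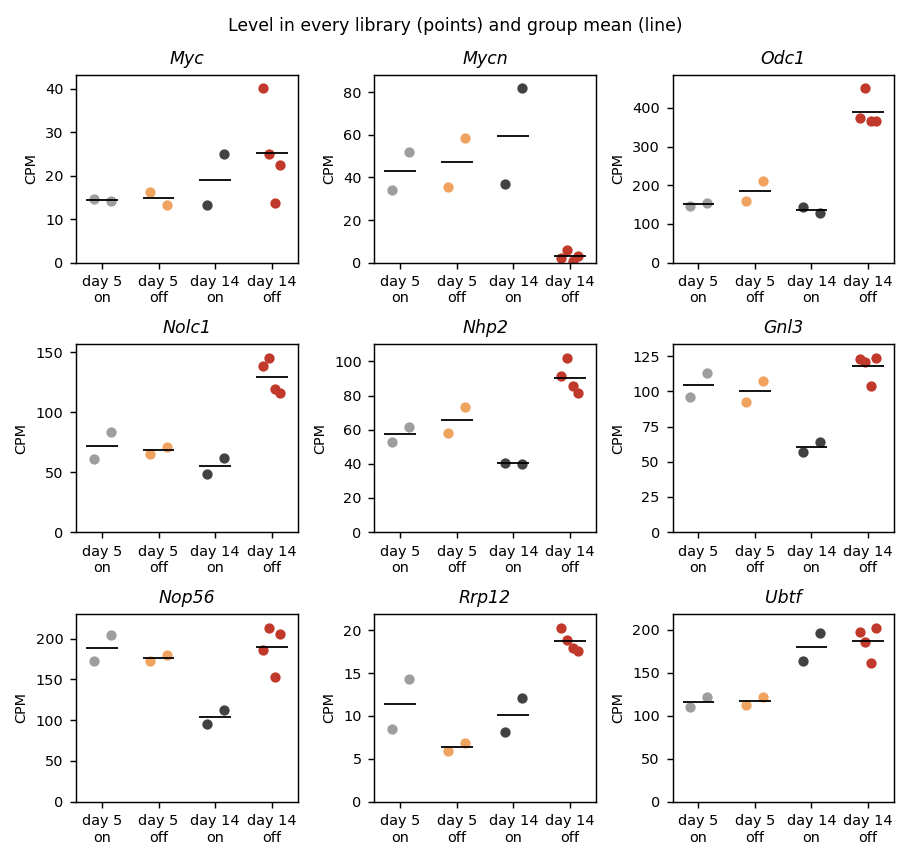
CPM of Myc, Mycn and 7 further genes (Odc1, Nolc1, Nhp2, Gnl3, Nop56, Rrp12 and Ubtf), 1 point for each library and a bar at the group mean, with the 4 groups along the axis. Odc1, Nolc1, Nhp2 and Gnl3 show day 14 off libraries clear of the day 14 on libraries, whereas the groups overlap for Myc.

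The 3 nucleolar phosphoproteins all rose. Nolc1 (ENSMUSG00000015176, chromosome 19, 46075863 to 46085530), a chaperone of snoRNA-protein complexes, stood at 138, 145, 119 and 116 CPM in the day 14 off group and at 48.5 and 62.0 in the day 14 on group, with 64.8 and 71.3 in the day 5 off group and 61.3 and 83.0 in the day 5 on group. The off libraries at day 14 were above all 6 others, and its log2 change was 1.23 ± 0.17 (edgeR adjusted p = 0.000537). Ncl, which encodes nucleolin, stood at 1598, 1587, 1260.0 and 1704 CPM against 921 and 1015, a change of 0.67 ± 0.15 (edgeR adjusted p = 0.00713). At day 5 Ncl was at 1141 and 1205 CPM off and 1159 and 1472 on, so the day 5 on library of replicate 2 reached the range of day 14 off. Npm1, the nucleophosmin gene that is often mutated in human acute myeloid leukaemia, was higher off than on by 0.62 ± 0.14 on the log2 scale at day 14 (edgeR adjusted p = 0.00676). It stood at 1418, 1328, 1101 and 1500 CPM off and 844 and 901 on at day 14. At day 5 it stood at 1155 and 1192 CPM off and 1291 and 1430 on, so the day 14 on libraries were the ones set apart.

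Both classes of snoRNA-protein complex gave higher values, with all 4 box H/ACA genes and 2 of 3 box C/D genes called. Nhp2 (ENSMUSG00000001056, chromosome 11, 51619735 to 51623714), a core H/ACA protein, stood at 91.5, 102, 85.6 and 81.3 CPM in the day 14 off group and 40.5 and 40.1 in the day 14 on group, and at 57.9 and 73.4 off and 52.6 and 61.8 on at day 5. The day 14 on libraries were the lowest of the 10 and nearly equal, and the log2 change was 1.16 ± 0.15 (edgeR adjusted p = 0.000356). Nop10, its H/ACA partner, stood at 320.0, 302, 261 and 277 CPM against 134 and 193 (0.83 ± 0.18, edgeR adjusted p = 0.00544), and at day 5 at 182 and 233 off and 218 and 261 on. Dkc1, the pseudouridine synthase of the same complex, rose by 1.02 ± 0.20 and Gar1 by 0.78 ± 0.17 on the log2 scale (edgeR adjusted p = 0.00333 and 0.00496).

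Box C/D complexes add methyl groups to ribosomal RNA through Fbl, and Nop56 and Nop58 form the core around it. Nop56 (ENSMUSG00000027405, chromosome 2, 130274430 to 130279313) stood at 186, 214, 153 and 205 CPM in the day 14 off group and at 95.3 and 113 in the day 14 on group, while the 4 day 5 libraries lay at 172 to 204. Only the day 14 on libraries were set apart for this gene, and the log2 change was 0.86 ± 0.16 (edgeR adjusted p = 0.00245). Nop58 stood at 398, 421, 324 and 396 CPM off and 277 and 357 on, with overlapping groups and a change of 0.28 ± 0.16 (edgeR adjusted p = 0.22). Its day 5 values were as high or higher, at 397 and 473 CPM off and 594 and 468 on. Fbl rose by 0.54 ± 0.14 (edgeR adjusted p = 0.0118).

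Within RNA polymerase I, 3 of 5 members rose, all of them subunits. Polr1c, a subunit shared with RNA polymerase III, stood at 104, 94.1, 111 and 89.6 CPM in the day 14 off group and 54.7 and 69.0 in the day 14 on group, and at 73.0 and 76.4 off and 80.1 and 96.4 on at day 5. Its groups did not overlap at day 14, and the change was 0.69 ± 0.15 (edgeR adjusted p = 0.00562). Polr1b, the second-largest subunit, rose by 1.26 ± 0.29 and Polr1a, the largest, by 0.60 ± 0.20 (edgeR adjusted p = 0.00802 and 0.0393). The factors that start transcription were not called. Ubtf, which binds the ribosomal DNA promoter, stood at 197, 186, 161 and 203 CPM off and 163 and 197 on, with a change of 0.05 ± 0.14 (edgeR adjusted p = 0.804) and an interval of -0.25 to 0.35. All 4 of its day 5 libraries were lower, at 113 and 122 CPM off and 110.3 and 122 on. Rrn3, which recruits the polymerase, changed by 0.54 ± 0.19 with day 14 groups that did not overlap, and was not called (edgeR adjusted p = 0.0515). It was called without the low-count filter and without day 14 off replicate 3, and no difference between subunits and initiation factors was tested.

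Small-subunit assembly factors were called higher in 9 of 11 cases, with a median log2 change of 0.83. Rrp9, a protein of the U3 snoRNA complex, stood at 34.8, 33.1, 28.6 and 28.4 CPM in the day 14 off group, 14.2 and 19.0 in the day 14 on group, 16.5 and 17.7 in the day 5 off group and 14.4 and 15.3 in the day 5 on group. Day 14 off was the only group above 20 CPM for it, and the change was 0.91 ± 0.17 (edgeR adjusted p = 0.00263). Heatr1, a factor of the early precursor, rose by 1.07 ± 0.21 (edgeR adjusted p = 0.00295), from 48.2 and 71.4 CPM on to 113 to 145 CPM off. Noc4l rose by 0.96 ± 0.26, Rrp12 by 0.89 ± 0.24, Utp20 by 0.83 ± 0.21, Tsr1 by 0.61 ± 0.15, Nop14 by 0.51 ± 0.14 and Wdr43 by 0.44 ± 0.15, and the ribosomal RNA acetyltransferase gene Nat10 rose by 0.84 ± 0.22 (edgeR adjusted p from 0.0119 to 0.0433). Bysl, which acts late in small-subunit assembly, stood at 257, 309.9, 283 and 231 CPM off and 297 and 277 on at day 14, and at 187 and 185 off and 162 and 231 on at day 5. It was the member with a change below 0, at -0.09 ± 0.16 (edgeR adjusted p = 0.712). Ltv1, a late export factor, changed by 0.35 ± 0.16 (edgeR adjusted p = 0.13).

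Of the 10 large-subunit members 7 rose, with a median of 0.59. Gnl3, which encodes nucleostemin (ENSMUSG00000042354, chromosome 14, 31012433 to 31019152), stood at 123, 121, 104 and 124 CPM in the day 14 off group and 56.8 and 63.9 in the day 14 on group, against 92.4 to 113 in the 4 day 5 libraries. Here too the day 14 on libraries were apart from the rest, and the change was 0.97 ± 0.14 (edgeR adjusted p = 0.000608). Noc3l stood at 21.1, 17.6, 10.1 and 18.2 CPM off and 10.5 and 16.2 on, with overlapping groups and a change of 0.32 ± 0.31 (edgeR adjusted p = 0.458), and at 21.8 and 16.6 off and 24.7 and 16.7 on at day 5.
Pes1 and Wdr12, which form a complex with Bop1 in precursor cleavage, rose by 0.49 ± 0.15 and 0.62 ± 0.20 (edgeR adjusted p = 0.0245 and 0.0383), while Bop1 changed by 0.30 ± 0.20 (edgeR adjusted p = 0.288). Nop2 rose by 0.85 ± 0.24, Rrp1b by 0.85 ± 0.22, Nop16 by 0.73 ± 0.21 and the helicase gene Ddx18 by 0.56 ± 0.15 (edgeR adjusted p from 0.014 to 0.0197). Noc2l, a partner in export of the precursor, did not pass (0.36 ± 0.18, edgeR adjusted p = 0.158).

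Of the other nucleolar genes, Ddx21 rose and Mybbp1a was not called, a difference that was not tested. Ddx21, a helicase that links polymerase I transcription to processing, stood at 332, 379.8, 287 and 307 CPM in the day 14 off group and 183 and 239 in the day 14 on group, a rise of 0.63 ± 0.20 (edgeR adjusted p = 0.0315), and at 234 and 252 off and 201 and 317 on at day 5. Mybbp1a, a Myb-binding nucleolar protein, stood at 138, 142, 126 and 132 CPM off and at 96.3 and 166 on. Its day 14 on libraries lay on either side of the off libraries, and the change was 0.04 ± 0.27 (edgeR adjusted p = 0.928).

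**Figure D3:**
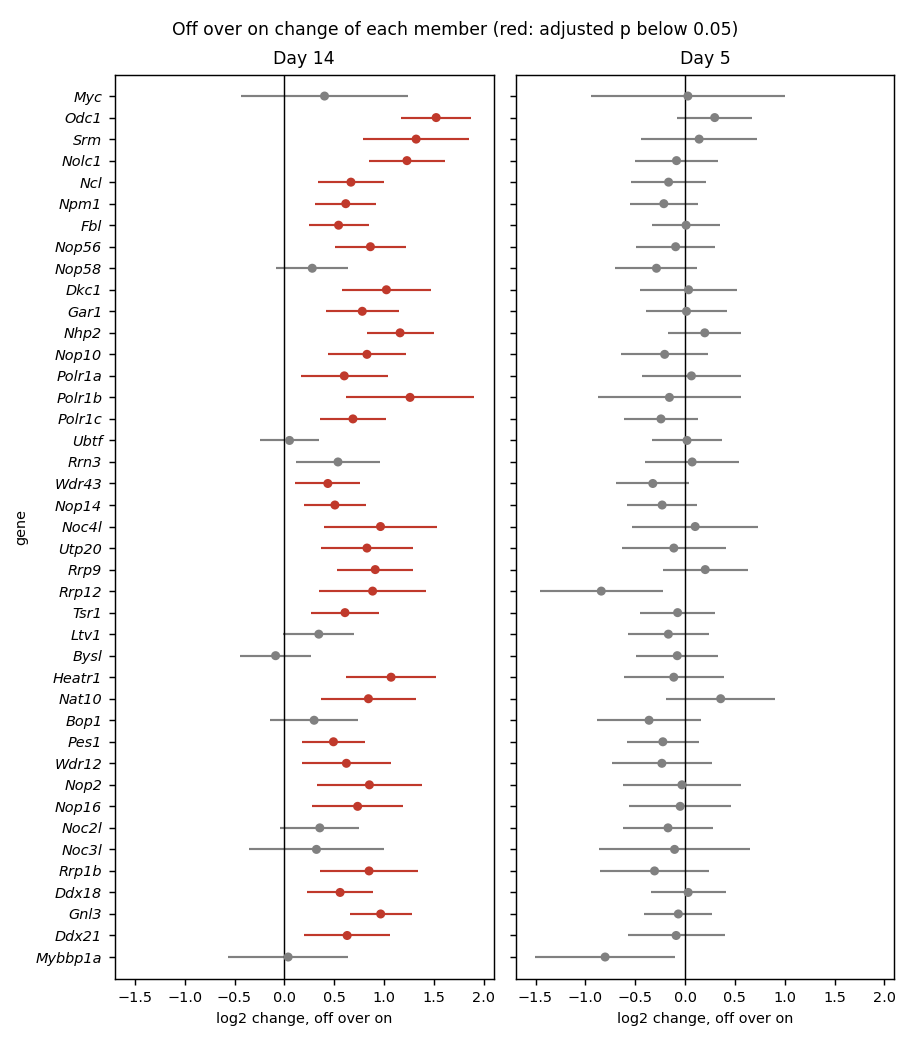
Log2 change, off over on, of each of the 41 genes at day 14 (left) and day 5 (right), with points for the estimate, bars for the 95% interval and red for an edgeR adjusted p below 0.05. At day 14, 31 points are red and 40 lie above 0, and at day 5 0 points are red.

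Neighbouring genes limit some of these values. For 11 members, a gene on the opposite strand overlaps them and reached at least 20% of their counts in some library. The overlap was taken over whole genes, introns included, and reads shared by such pairs were not looked for. The strand setting of the counting is not given in the sources used here, so whether part of a member's counts came from its neighbour cannot be told. Pbrm1 had 164% to 349% of the counts of Gnl3, Ccnd3 had 119% to 174% of those of Bysl, Srr had 72.4% to 100.0% of those of Tsr1, and Parp3 reached 194% of those of Rrp9. The rest were Nop56, Nhp2, Nop14, Heatr1, Bop1, Noc2l and Mybbp1a. Among the 30 members without such a neighbour, 24 rose at day 14, with a median of 0.68. Processed copies of near-identical sequence were found for 5 members, and the copy of Ddx18 held 32.5% as many counts as Ddx18, which makes its value uncertain, while the copies of Nop56, Fbl, Npm1 and Wdr12 together held 9.89% or less.

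At day 14 Mycn, unlike the MYC target genes, was lower with the vector off, and at day 5 it was not called (0.13 ± 0.58, edgeR adjusted p = 0.944). Mycn (ENSMUSG00000037169, chromosome 12, 12936093 to 12941914), a MYC relative known from stem and progenitor cells, stood at 2.03, 5.71, 0.826 and 3.29 CPM in the day 14 off group, 37.0 and 81.7 in the day 14 on group, 35.7 and 58.5 in the day 5 off group and 34.1 and 52.0 in the day 5 on group. It had 12 to 78 counts in the day 14 off libraries and 303 to 905 in the others, and the change at day 14 was -4.32 ± 0.54 (edgeR adjusted p = 0.000365), called under all 18 alternatives. Of 12 genes of the wider MYC network (relatives, partners and antagonists), 0 rose and 4 fell at day 14 (median -0.24), where 14.9% of all tested genes were called lower. Besides Mycn these were Mlxip (-1.12 ± 0.25), Mxd4 (-0.87 ± 0.22) and Mnt (-0.86 ± 0.14), with edgeR adjusted p of 0.00606, 0.0129 and 0.00117. Mlxip was not called without day 14 on replicate 1 (-1.002, edgeR adjusted p = 0.0511), nor Mxd4 without day 14 on replicate 2 (-0.48, edgeR adjusted p = 0.198). Mnt and Mxd4 encode repressors that compete with MYC for their shared partner MAX. Mnt stood at 17.6 to 19.1 CPM in the day 14 off group and at 31.0 and 35.7 in the day 14 on group, with 16.7 to 20.7 at day 5, so day 14 on was the group that stood apart.

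Further genes of the pathway were taken from lists that leave out the 41, also chosen with earlier results of these data known. For other MYC targets and other subunit factors, the share called higher at day 14 was above that of all tested genes (16.9%, median 0.01). Most of the other small-subunit and large-subunit factors were not called higher. Of 24 other MYC targets 18 rose and 0 fell (median 0.76), among them the nuclear transport GTPase gene Ran (1.22 ± 0.13), the mitochondrial chaperone gene Hspd1 (1.42 ± 0.20), Ahcy (1.15 ± 0.18) and Nme1 (1.01 ± 0.16), with edgeR adjusted p of 0.000131 to 0.000974. Of 45 other small-subunit factors 16 rose (median 0.41), led in p by Emg1 (0.92 ± 0.13), Wdr75 (0.93 ± 0.16), Pwp2 (0.97 ± 0.19) and Utp6 (0.61 ± 0.13), of which Pwp2 (edgeR adjusted p = 0.0511) and Utp6 (0.0667) lost their calls when day 14 on replicate 1 was left out. Of 45 other large-subunit factors 20 rose (median 0.45), led by Brix1 (0.98 ± 0.14), Rpf2 (0.90 ± 0.14), Ftsj3 (0.94 ± 0.18) and Ppan (1.12 ± 0.21), and Nsa2 fell (-0.39 ± 0.10, edgeR adjusted p = 0.0162).

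Accessory machinery gave mixed shares. Among 12 snoRNA-protein assembly factors 6 rose (median 0.55), including the helicase gene Ruvbl1 (1.02 ± 0.18), Taf9 (0.99 ± 0.17), Naf1 (0.99 ± 0.23) and Snu13 (0.78 ± 0.14). Of 14 RNA exosome genes, which trim ribosomal RNA precursors, 7 rose (median 0.50), including Exosc7 (0.90 ± 0.15), Dis3 (0.89 ± 0.17), Exosc8 (0.67 ± 0.13) and Mtrex (0.60 ± 0.13). Of 16 other RNA polymerase I genes 5 rose and Taf1b fell (median 0.26), with Polr1e at 1.11 ± 0.23, Polr2h at 0.80 ± 0.17, Polr2f at 0.64 ± 0.13 and Taf1b at -0.58 ± 0.18. Without day 14 on replicate 1, Naf1, Mtrex and all 4 of these polymerase I genes lost their calls (edgeR adjusted p from 0.0537 to 0.111), and Taf1b was not called either without day 14 on replicate 2 or day 14 off replicate 2 or 3. Of 21 RNA polymerase III genes 3 rose (14.3%, median 0.11), a share near that of all tested genes called higher (16.9%). Gtf3c5 (0.92 ± 0.28) and Gtf3c4 (0.66 ± 0.15), subunits of a general initiation factor of that polymerase, were among them. Gtf3c5 lost its call without the low-count filter, without any 1 of the day 14 off libraries and without day 14 on replicate 1 (0.60, adjusted p by edgeR = 0.255), and Gtf3c4 without day 14 on replicate 2 (0.58, edgeR adjusted p = 0.0715). No difference between lists was tested.

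**Figure D4:**
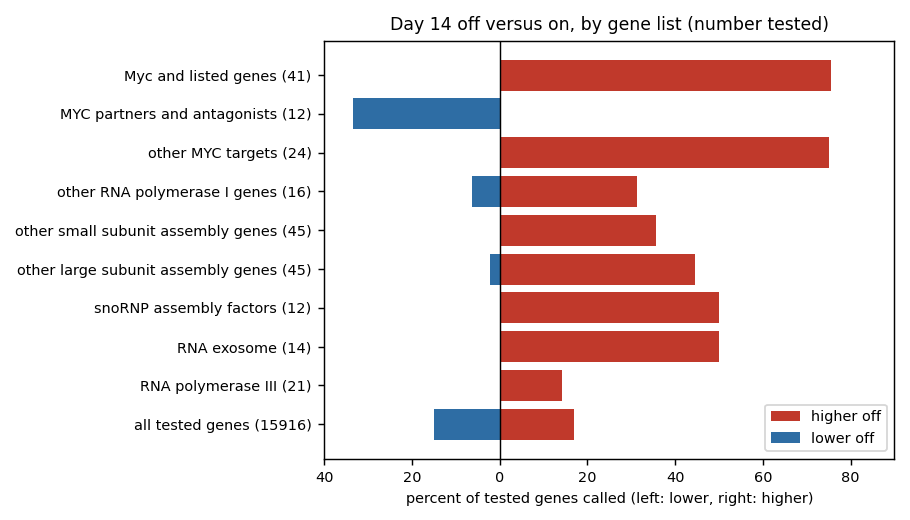
Percent of the tested genes of the members, of each pathway list and of all genes called higher (right) or lower (left) with the vector off at day 14 by edgeR at an adjusted p of 0.05, with the number tested in brackets. The 41 genes (75.6% higher) and the other MYC targets (75% higher) have the longest bars among those drawn, and all tested genes are at 16.9% higher and 14.9% lower.

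After 5 days no such shift was measured. By edgeR's test 0 of 41 members were called in either direction, where 0.484% of all tested genes were called, and 2 had an unadjusted p under 0.05. DESeq2 also called 0 members, and limma voom called 0 of all genes at this time. With so small a share of all genes called, a count of 0 members says little by itself. The median change was -0.09, against -0.02 over all tested genes, with 14 members above 0 and 27 below. Groups did not overlap in 3 of 41 members higher off and 9 of 41 lower off, against 19.3% and 20.9% of all tested genes. The members' share was near that of all tested genes for lower and below it for higher. None of the other pathway lists had a called gene at this time.

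For the genes with the clearest day 14 rises, the day 5 intervals ended well below the day 14 changes. At day 5 Nolc1 changed by -0.09 (95% interval -0.51 to 0.34), Gnl3 by -0.07 (-0.41 to 0.27) and Nhp2 by 0.20 (-0.17 to 0.57). Odc1 had groups that did not overlap and a change of 0.30 ± 0.17 (interval -0.08 to 0.67, edgeR adjusted p = 0.456). Myc changed by 0.03 ± 0.44 (edgeR adjusted p = 0.985), and its interval of -0.94 to 1.001 allows a change of either sign. The lowest values belonged to Rrp12, an export factor (-0.84 ± 0.28, edgeR adjusted p = 0.21), and Mybbp1a (-0.80 ± 0.32, edgeR adjusted p = 0.281). Rrp12 stood at 5.88 and 6.90 CPM off and 8.43 and 14.3 on, and Mybbp1a at 61.6 and 68.7 off and 73.6 and 153 on. In both genes day 5 on replicate 2 was far above its partner, and without day 5 on replicate 2 the median change of the members was 0.13 and 28 of 41 were above 0. Without day 5 on replicate 1, Mybbp1a was called lower.

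The test of the difference between days asked whether the off over on change was larger at day 14 than at day 5. It was called for 5 of 41 members, all larger at day 14, where 3.06% of all tested genes were called, 1.65% in that direction and 1.41% in the other. The 5 were Rrp12 (1.73 ± 0.37, edgeR adjusted p = 0.0379), Nolc1 (1.32 ± 0.26, 0.0291), Odc1 (1.23 ± 0.23, 0.0272), Gnl3 (1.03 ± 0.21, 0.0322) and Nhp2 (0.96 ± 0.22, 0.0473), each an edgeR estimate on the log2 scale. The difference was above 0 for 40 members, with a median of 0.78 against 0.03 over all tested genes, and 30 members had an unadjusted p under 0.05. Myc gave 0.37 ± 0.58 (edgeR adjusted p = 0.746) and Mycn -4.45 ± 0.81 (edgeR adjusted p = 0.028).

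The number of calls changed with single libraries and with the processing. With all libraries kept it was 17 without the low-count filter and 14 with DESeq2. The count was 0 without day 14 off replicate 1, without day 14 off replicate 4, without day 14 on replicate 1 and without day 5 off replicate 1. It was 1 without day 14 off replicate 2, without day 14 on replicate 2 and without day 5 on replicate 2, and 22 without day 5 on replicate 1. The median over members stayed at 0.60 to 0.94 in these fits. Mycn lost its call without day 14 off replicate 1, day 14 off replicate 4, day 14 on replicate 2 or day 5 off replicate 2, with edgeR adjusted p of 0.05 to 0.0636.

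The off and on arms were also each followed from day 5 to day 14. With the vector off, 21 of 41 members rose from day 5 to day 14 and 0 fell, where 17.0% of all tested genes were called, 10.1% higher and 6.94% lower. The median change was 0.60 against -0.01 over all tested genes, 39 members were above 0, and in 30 the 4 day 14 libraries lay above both day 5 libraries, against 24.2% of all tested genes. The smallest p belonged to Odc1 (1.07 ± 0.15, edgeR adjusted p = 0.00226), Rrp12 (1.54 ± 0.25, 0.00366), Gar1 (0.96 ± 0.17, 0.0044), Nolc1 (0.93 ± 0.17, 0.00576), Rrp9 (0.87 ± 0.17, 0.00782) and Srm (1.16 ± 0.24, 0.00904). Myc changed by 0.77 ± 0.38 and did not pass (edgeR adjusted p = 0.198), but was called without the low-count filter (0.77). The count was 9 without day 14 off replicate 1, 12 without day 14 off replicate 2, 2 without day 5 off replicate 1 and 5 without day 5 off replicate 2.

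With the vector left on, 0 members rose and 2 fell from day 5 to day 14, where 2.32% of all tested genes were called, 1.36% lower and 0.968% higher. The 2 were Nop56 (-0.86 ± 0.18, edgeR adjusted p = 0.0412) and Gnl3 (-0.80 ± 0.16, edgeR adjusted p = 0.0384). Nop56 went from 172 and 204 CPM to 95.3 and 113, and Gnl3 from 96.1 and 113 to 56.8 and 63.9. Across the 41 genes the median was -0.30 against 0 over all tested genes, 29 were below 0, and 17 had both day 14 libraries below both day 5 libraries, against 23.1% of all tested genes. Myc changed by 0.40 ± 0.44 (edgeR adjusted p = 0.654).

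The number of calls in the on arm moved both ways. It was 6 lower without the low-count filter and 5 lower with DESeq2, each with Ubtf called higher. The count of members lower was 0 without day 14 off replicate 1, 2 or 4, without either day 14 on library and without day 5 off replicate 1, and 1 without day 5 off replicate 2. It was 0 in a fit of the day 14 on and day 5 on libraries alone, 1 with RLE size factors and 0 among the members with no overlapping neighbour, since both genes have one. Without day 5 on replicate 2, the median of the members was 0.11, above 0, with Nop58 and Wdr12 lower and Bysl higher in place of those calls.

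**Figure D5:**
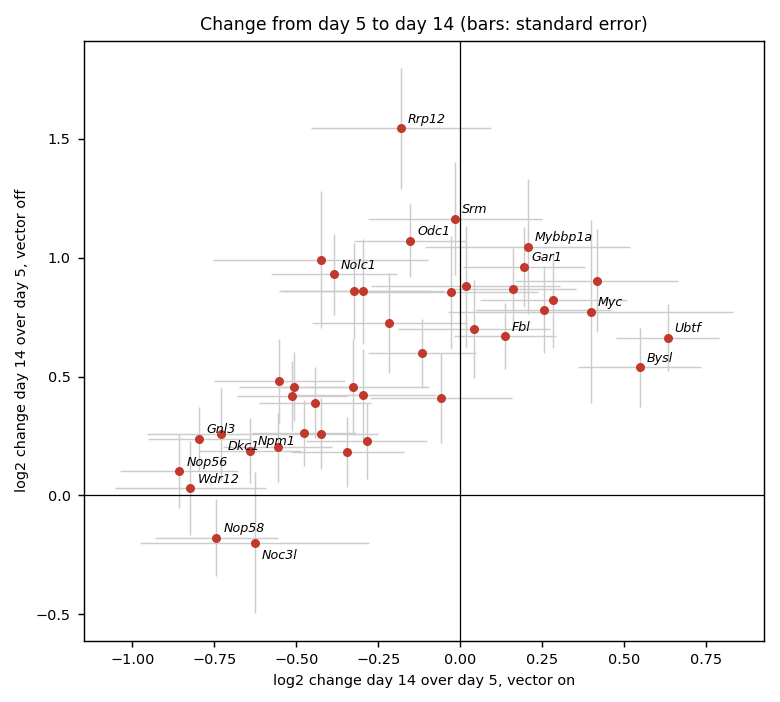
Log2 change from day 5 to day 14 of each of the 41 genes with the vector on (horizontal) and off (vertical), with bars for the standard error. Most points lie above the horizontal 0 line, and 29 lie to the left of the vertical 0 line.

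The changes over time in the off and on arms are set side by side for some genes, which were singled out after their values were seen, and no difference between genes was tested. In Odc1, Srm and Rrp9 the on arm stayed near its day 5 level (-0.15, -0.02 and 0.16) and the off arm rose (1.07, 1.16 and 0.87). In Nop56, Gnl3 and Dkc1 the off arm was close to its day 5 level (0.10, 0.24 and 0.26, edgeR adjusted p from 0.255 to 0.702) and the on arm gave -0.86, -0.80 and -0.73, called for Nop56 and Gnl3 with the limits given above and not for Dkc1 (edgeR adjusted p = 0.1). Wdr12 and Npm1 gave 0.03 and 0.19 in the off arm and -0.82 and -0.64 in the on arm, where neither passed (edgeR adjusted p = 0.0792 and 0.0566). Nolc1 and Nhp2 gave changes of 0.93 (called) and 0.46 (edgeR adjusted p = 0.0547) in the off arm and -0.39 and -0.51 in the on arm, neither of them called. Ubtf had nearly equal changes in both arms, 0.66 ± 0.14 off (edgeR adjusted p = 0.0105) and 0.63 ± 0.16 on (edgeR adjusted p = 0.0587). Bysl did likewise, at 0.54 ± 0.17 (edgeR adjusted p = 0.048) and 0.55 ± 0.19 (edgeR adjusted p = 0.134). Summed over all 41 genes, the level was 6907 to 8357 CPM in the day 14 off group, 4711 and 5463 in the day 14 on group, 5720 and 6283 in the day 5 off group and 6140 and 7159 in the day 5 on group. The day 14 on libraries had the lowest sums, and the day 5 on library of replicate 2 reached into the range of day 14 off. The sum is weighted to the genes with most counts. The mean log2 CPM of the members was 6.46 to 6.72 in the day 14 off group and 5.77 and 6.08 in the day 14 on group. It was 5.997 and 6.10 in the day 5 off group and 5.95 and 6.31 in the day 5 on group. By that mean, day 14 on replicate 2 lay among the day 5 libraries, and all day 5 libraries were below day 14 off.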

How the data were processed

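Per the labels' protocols, Trizol and Direct-zol were used for RNA, followed by QuantSeq 3′ libraries and single-end NextSeq500 reads. Among the tools in the submitters' processing notes are HISAT2 2.0.4, featureCounts, and Subread 2.0.0, and the build named is mm10. Their settings, the strand use and the annotation release were not given in the sources used here. Raw read counts, not normalised, were deposited for 52636 genes, and 29010 of these had a count. GENCODE M21 gave names and positions for 52489 IDs.

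The counts were analysed here in R 4.3.3 with edgeR 4.0.16. Genes were kept by filterByExpr and scaled by TMM. All 10 libraries entered a single robust quasi-likelihood fit of the 4 group means, with Benjamini-Hochberg adjustment over 15916 genes and calls at 0.05. Standard errors come from the F statistic, and intervals are 95%. Total counts of 9292644 to 14340624 give a limit of 0.209 to 0.323 CPM for a count of 0 (3 counts, counting error only). DESeq2 1.42.0, limma 3.58.1 and other settings were alternatives, and the fit was tested on simulated data. The added alternative without members that have an overlapping neighbour, at 20% of their counts, was chosen after seeing the data.

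The members and lists were chosen with earlier results of these data known. Named with values in every library, or with a range for the day 5 libraries, are Myc and, in each role, the members of smallest and largest p at day 14. Other comparisons name called members, up to 6 by p, and Myc, and each pathway list up to 4 called genes by p. Of the genes so named, 1 is not reported here.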

Additional observations from a re-analysis of the deposited data

Results flagged for a closer look

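Within the 4 day 14 off libraries, 1 library lay far from the others for 2 members. For Odc1 replicate 2 was high (450.1 CPM against 366 to 374), with a gap of 0.909 of the group's range. For Gnl3 replicate 3 was low (104 CPM against 121 to 124), with a gap of 0.856. Both gaps exceed Dixon's critical value at the 95% level for 4 libraries. Chance alone passes it in about 1 group of 20, so some such gaps are expected among 41 members. The off over on change differed between days, by edgeR's test of that difference, for Odc1 (1.23 larger at day 14 on the log2 scale), Nolc1 (1.32), Nhp2 (0.963), Rrp12 (1.73) and Gnl3 (1.03), with the effect of single libraries given with those results above.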

How the results depend on the processing

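Of the 18 alternatives, 8 kept all libraries and 10 left out 1 library each. Where that left a lone library in a group, its spread was taken to equal that of the other groups. At day 14, 27 to 31 members were called higher with all libraries kept and 7 to 31 with 1 left out, with medians of 0.55 to 0.87 and 2985 to 5738 genes called in all when 1 was left out. At day 5 the median with 1 library left out was -0.31 to 0.13, members lower 0 to 1, and genes called in all 0 to 304 (77 in the reported fit). The difference between days gave 0 to 22 members, medians of 0.60 to 0.94 and 106 to 965 genes. The change over time with the vector on gave 0 to 2 members lower, 0 to 1 higher, medians of -0.50 to 0.11 and 0 to 680 genes, and with the vector off 2 to 22 members higher, medians of 0.54 to 0.63 and 601 to 3409 genes.

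Without the low-count filter, counts were 992 genes and 1 member lower (Mybbp1a) at day 5, 1957 genes and 17 members for the difference, and 1275 genes with 1 member higher and 6 lower over time with the vector on. DESeq2 gave 472 genes at day 5, 1327 genes and 14 members for the difference, and 1136 genes with 1 member higher and 5 lower over time with the vector on. limma voom gave 0 genes at day 5. A fit of only the groups compared gave 0 genes at day 5 and 0 genes and 0 members lower over time with the vector on. RLE scaling gave 1 member lower there. Members with no overlapping neighbour gave 3 for the difference, 0 lower over time with the vector on and, at day 14, 24 higher. The cause of these shifts was not tested. The all-gene median moved by no more than -0.05 on the log2 scale under any alternative that kept all libraries at day 14.

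A replicate block used the numbers 1 and 2 that the groups share. Same-numbered libraries deviated together with correlations of 0.03 to 0.33, not all over 0.1, and the labels do not say what a number marks, so the libraries share only a number. The block gave 225 genes at day 5, 1521 genes and 19 members for the difference, and 1014 genes with 1 member higher and 5 lower over time with the vector on. With the block, Myc over time with the vector off (1.13) and Rrn3 at day 14 were called, and Taf1b and Gtf3c5 at day 14 were not (edgeR adjusted p = 0.0572 and 0.0688).

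Some changes that were not called turned sign when 1 library was left out. Myc at day 14 ran from -0.012 (without day 14 on replicate 1) to 0.94, and for the difference from -0.049 (the same library) to 0.91. Myc at day 5 ran from -0.11 (without day 5 off replicate 1) to 0.17, and over time with the vector on from -0.14 (without day 14 on replicate 2) to 0.81. Mycn at day 5 gave -0.27 without day 5 off replicate 2, -0.16 without day 5 on replicate 1 and at most 0.50, and over time with the vector on -0.22 without day 14 on replicate 2, with a highest value of 0.94. With 2 libraries in 3 of the 4 groups, both the number of libraries and the depth limit precision.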
